A study of Macaca fascicularis with 3 samples.

Results

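Mitotic late oogonia-like cells were the late cynomolgus monkey germ cells, derived from embryonic stem cells, that scored highest for transcripts of dividing cells. A cell barcode counted as late when it held at least 10000 unique molecular identifiers (UMIs, counts of single captured transcripts), had 2 to 20% of them from 13 mitochondrial genes, and stayed below 4 limits. Those limits were 200 counts per 1e6 UMIs (CPM) for POU5F1, 500 CPM for SYCE3, 50 CPM for STRA8 and 100 CPM for EGR4 and PIWIL4 together. Late barcodes were then ranked within each library by the summed CPM of MKI67, TOP2A, UBE2C, CDC20, PLK1 and AURKB, and the top-ranked ones, 1 in 3, were taken. The members were thus chosen by these measured values. This gave 346 of 1037 late barcodes, of 2186 barcodes past the depth and mitochondrial limits and of 7827 barcodes in all.

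Each of the 3 libraries came from a xenogeneic reconstituted ovary (xrOvary), an aggregate of monkey germ cells with ovarian somatic cells of mouse embryos, and the libraries differed in the stage of the mouse cells. In the order E13.5, E14.5, E15.5 (days of mouse embryonic development), which is kept for all values below, there were 98, 87 and 161 mitotic late cells, beside 195, 174 and 322 other late cells. The germ cells of every library came from 1 embryonic stem cell line, 15XRi-AGVT#7, labelled wild type with a TFAP2C-EGFP and a DDX4-tdTomato reporter, and all were harvested at the culture code ag49+52, which the labels do not spell out. Germ cells positive for either reporter were sorted, mixed with sorted mouse somatic cells and loaded together, so each stage is 1 library without a replicate, and the number of aggregates pooled in it is not given in the sources used here.

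Oogonia are the female germ cells of the fetal ovary that still divide by mitosis. They first carry pluripotency-related genes and later switch on DDX4, DAZL and other genes of germ cell RNA control, and they stop dividing when they enter meiosis. Dividing cells make the cyclin B and CDK1 kinase, the condensin, kinetochore and spindle proteins in G2 and M phase, and the replication proteins earlier, in G1 and S phase, so a ranking by G2 and M transcripts places S phase cells lower.

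The cells carried the markers of their name. The summed level of 6 germ cell markers (DDX4, DAZL, MAEL, SYCP3, TDRD9 and DND1) was 847, 836 and 811 CPM in the mitotic late cells, against 31.4, 36.0 and 48.3 CPM in barcodes with at least 1000 UMIs and under 2% of them mitochondrial, where somatic cell markers were high. These low-mitochondrial barcodes are taken here as mouse cells. Their transcripts were counted on monkey features, so here and below their CPM are not on the same scale as those of monkey cells. The labels call all the cells early oogonia, and the early oogonia genes described below were low in the mitotic late cells. The rule had already left out cells high in POU5F1, the earlier oogonia-like cells. These low levels are therefore a description of the chosen cells and no test of the label. No mitotic late cell lacked DAZL, the RNA-binding protein that licenses germ cells, and 1, 0 and 6 of them held no UMI of DDX4, the germ cell RNA helicase. All 346 had at least 100 CPM of DDX4 and DAZL together. Supporting cell markers summed to 19.8, 51.3 and 40.3 CPM in mitotic late cells and to 40.7, 64.4 and 68.4 CPM in other late cells, and stromal markers to 57.0, 89.3 and 95.1 CPM against 125, 107 and 120 CPM. The low-mitochondrial barcodes held 2557 to 2917 CPM of supporting cell and 2490 to 3469 CPM of stromal markers, so both lists were far lower in germ cells, and lower in mitotic late than in other late cells of every library. Surface epithelium markers summed to 181, 228 and 141 CPM in mitotic late cells and to 144.8, 216 and 134 CPM in other late cells, which was higher in mitotic late cells of every library and close to the 207 and 209 CPM of the low-mitochondrial barcodes in E13.5 and E14.5. Endothelial markers stayed between 3.005 and 7.26 CPM and blood cell markers between 1.60 and 1.91 CPM in mitotic late cells, and pluripotent stem cell markers summed to 37.7, 30.2 and 38.4 CPM. Of the defining supporting cell markers, 1 was at 0 in mitotic late cells of E13.5 and E14.5.

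Barcode sequences recurred between libraries. E13.5 and E15.5 shared 643 barcodes, E13.5 and E14.5 199, and E14.5 and E15.5 212. Of these, 614, 165 and 88 differed over 10-fold in UMIs, and no barcode was a mitotic late cell in both libraries of a pair. The shared barcodes included 57, 20 and 57 mitotic late cells (58.2%, 23.0% and 35.4%), and the counts over all genes tested are given with and without them; levels and list counts include them. Doublets were not called, and 11, 9 and 19 of the 15, 13 and 25 deepest late barcodes (over the 95th percentile of UMIs in their library) were mitotic.

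The ranking score chose the cells, so its values are a description. The median score was 3442, 3294 and 3169 CPM in mitotic late cells and 384, 360 and 332 CPM in other late cells. The last cell inside the limit scored 2154, 1706 and 1729 CPM and the first outside 2101, 1680 and 1706 CPM. Only 11, 9 and 22 late barcodes lay within 10% of the limit. When the UMIs of each cell were split at random into 2 equal parts, 95 of 98, 82 of 87 and 150 of 161 of the cells taken by the ranking on one part were also taken by that on the other (96.9%, 94.3% and 93.2%). TOP2A, the topoisomerase that untangles sister chromatids, made up 43.6%, 38.4% and 36.3% of the summed score of mitotic late cells.

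**Figure D1:**
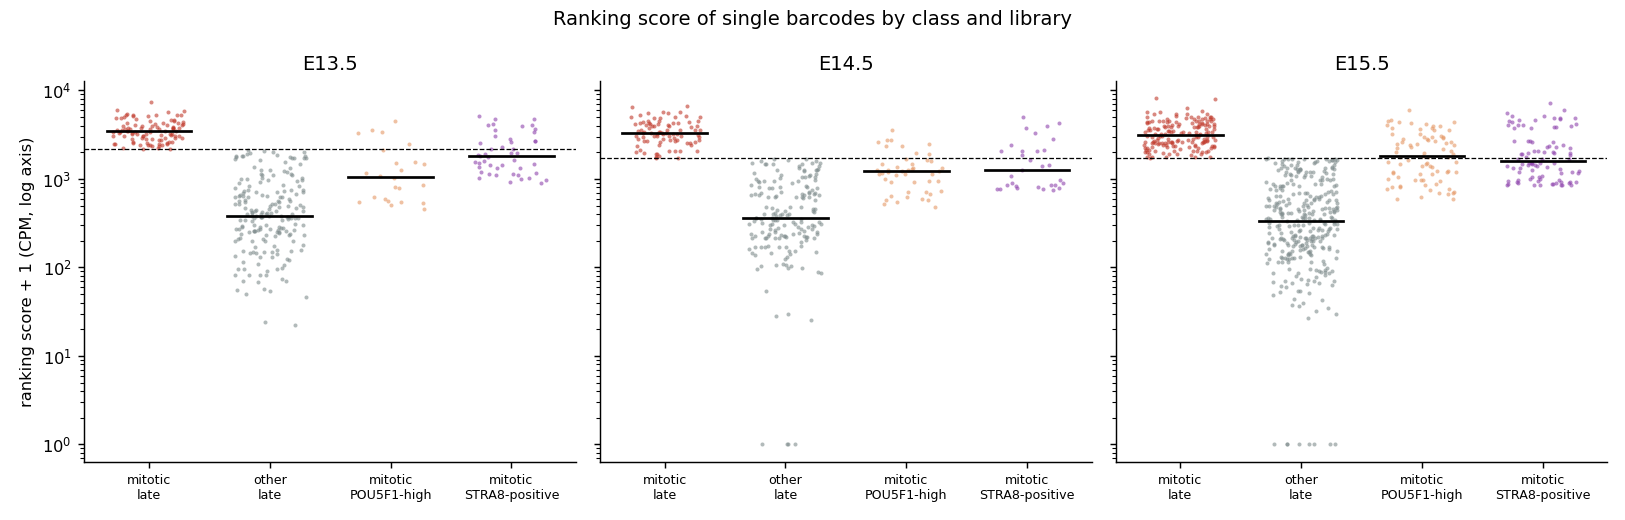
Ranking score plus 1 (CPM, log axis) of single barcodes in the 3 libraries, for mitotic late cells (red), other late cells (grey) and the top-ranked 1 in 3 of POU5F1-high (orange) and STRA8-positive cells (purple). Bars are medians and the dashed line is the lowest score among mitotic late cells, which reach medians of 3442, 3294 and 3169 CPM.

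High scores also occurred in germ cells outside the late class. The score limit of the late cells of the same library was reached by 7.04%, 6.57% and 17.8% of POU5F1-high germ cells, the earlier oogonia-like cells. Among STRA8-positive cells, STRA8 being a gene of meiotic entry, 13.6%, 12.8% and 15.52% reached it. Among SYCE3-high meiotic cells the share was 16.1% (5 of 31, exact 95% binomial interval 5.45 to 33.7%), 42.9% (12 of 28, 24.5 to 62.8%) and 14.04% (8 of 57, 6.26 to 25.8%). These intervals cover counting error only.

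Mitotic late cells held more UMIs than other late cells in each library. UMIs per cell enter the rule as its minimum of 10000 and as the denominator of CPM, so these values are a description. Their medians were 72731.5, 52967 and 60361 UMIs per cell, against 53881, 41055.5 and 44073 in other late cells, and the single-cell ranges overlapped widely. The ratio of medians was 1.35, 1.29 and 1.37, a mean log2 ratio of 0.42 ± 0.045 (SD, n = 3 libraries). Without the shared barcodes it was 0.35. At an equal depth of 10000 UMIs per cell, mitotic late cells showed a median of 3925.5, 3864 and 3898 genes, against 3969, 3791 and 3930.5 in other late cells, higher in 1 library and lower in 2. Mitochondrial UMIs took a median of 6.03, 5.84 and 8.42% in mitotic late cells and 6.66, 7.12 and 9.15% in other late cells, lower in all 3.

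**Figure D2:**
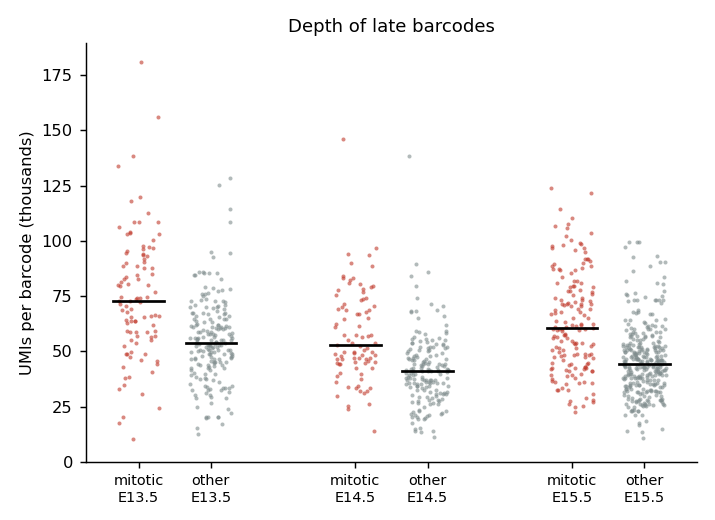
UMIs per barcode (axis in units of 1000) of mitotic late cells (red) and other late cells (grey) in each library; points are barcodes and bars medians. The median is higher in mitotic late cells of all 3 libraries, by 1.29 to 1.37 times, while the points overlap.

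For gene comparisons, UMIs were summed per library and class, and edgeR called genes at a Benjamini-Hochberg adjusted p under 0.05 across 14859 genes with the library as a block. The ranking and the levels come from the same cells, so genes that follow the cell cycle differ between mitotic late and other late cells by construction. The calls below describe that split and are no test of it. Of the 14859 genes, 4587 (30.9%) were called, 2455 (16.5%) higher and 2132 (14.3%) lower in mitotic late cells. At 2-fold or more, 191 (1.29%) were higher and 589 (3.96%) lower. Without E13.5 the counts were 1520 higher and 1033 lower, without E15.5 1344 and 1020, and with no replicate block 1183 and 948. Without the shared barcodes 1679 were higher and 1315 lower. With relative log expression (RLE) size factors in place of TMM, 2055 were higher and 2536 lower. Which direction held more calls thus depended on the scaling.

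The regulators of mitotic entry were called higher throughout, 19 of 19, with a median log2 fold change of 1.67 beside -0.03 over all genes. Their summed level was 5425, 5081 and 4933 CPM in mitotic late cells and 1727, 1735 and 1588 CPM in other late cells. CCNB1, the cyclin that switches on CDK1 at mitosis, stood at 863, 769 and 767 CPM in mitotic late cells, against 124, 139 and 109 CPM in other late cells. The libraries of the 2 classes did not overlap for CCNB1, and the fitted log2 fold change was 2.78 (SE 0.17). CDK1, the mitotic kinase itself, had 231, 232 and 226 CPM in mitotic late cells and 43.9, 37.8 and 42.8 CPM in other late cells, with a log2 fold change of 2.56 (SE 0.11). CDC25A, a phosphatase that activates cyclin-dependent kinases at the start of S phase as well, differed least in the list, at 69.0, 68.5 and 77.9 CPM against 62.8, 50.6 and 68.3 CPM, and its call was lost without E14.5, without E15.5 and without the shared barcodes.

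Chromosome, kinetochore and spindle genes followed the same order, beside 16.5% of all genes called higher and 14.3% lower. Condensin and chromosome arm genes were called higher in 10 of 10 and spindle and motor genes in 16 of 16 (median log2 fold changes 1.28 and 1.95). KIF20A, a kinesin of the central spindle, had 71.8, 62.7 and 72.2 CPM in mitotic late cells and 13.3, 7.73 and 10.2 CPM in other late cells. ASPM, which focuses spindle poles, had 585, 497 and 408 CPM against 99.1, 72.2 and 76.4 CPM. Kinetochore and passenger genes were called higher in 19 of 20 and lower in 1. The exception was MIS12, a kinetochore scaffold, at 5.46, 5.21 and 5.89 CPM in mitotic late cells and 9.07, 8.69 and 9.76 CPM in other late cells, a call lost without E13.5 and without E15.5. CENPA, the histone of centromeres, showed the largest difference of that list, with a log2 fold change of 2.49 (SE 0.14).

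The checkpoint and exit genes were less uniform. Spindle checkpoint genes were called higher in 7 of 9, where 16.5% of all genes were called higher and 14.3% lower. MAD1L1 and ZW10 were not called. BUB1B, the checkpoint protein BubR1, had 173, 163 and 146 CPM in mitotic late cells, against 35.4, 33.8 and 35.04 CPM in other late cells. MAD1L1, which loads MAD2 at kinetochores, had 22.7, 21.2 and 23.0 CPM against 24.6, 22.1 and 26.8 CPM. Of 19 genes of the anaphase-promoting complex and mitotic exit, 11 were called higher and 0 lower, with a median log2 fold change of 0.29. UBE2S, the enzyme that extends its ubiquitin chains, had 746, 823 and 786 CPM in mitotic late cells and 201, 243 and 194 CPM in other late cells. The core subunit ANAPC5 had 68.7, 65.3 and 77.2 CPM against 81.8, 74.8 and 87.7 CPM and was not called. Cytokinesis genes were called higher in 7 of 7, among them CEP55, the abscission scaffold, at 78.4, 68.3 and 60.5 CPM against 21.6, 22.6 and 22.9 CPM.

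**Figure D3:**
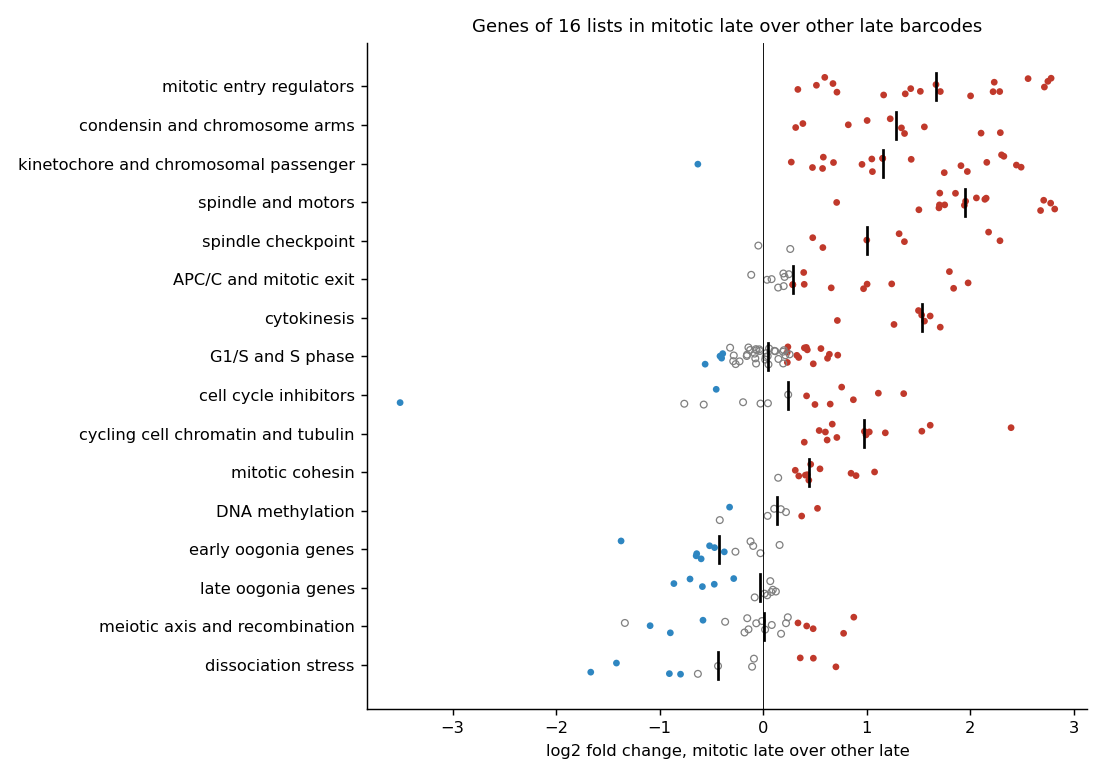
Log2 fold change of each tested gene of 16 lists, mitotic late over other late cells; filled points were called (red higher, blue lower), open points were not, and black bars are list medians. Mitotic lists lie to the right, with medians up to 1.95, the S phase list is centred near 0 and early oogonia genes lie to the left at a median of -0.42.

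Genes of G1/S and S phase were mixed. Of 47 tested, 13 were called higher and 4 lower, beside 16.5% higher and 14.3% lower over all genes. The median log2 fold change was 0.04. The list summed to 4339, 4419 and 4418 CPM in mitotic late cells and to 4565, 4061 and 4342 CPM in other late cells, with overlapping ranges. RRM2, the ribonucleotide reductase subunit, had the highest log2 fold change of the list, 0.72 (SE 0.13), at 88.2, 86.9 and 84.6 CPM in mitotic late cells against 56.6, 54.5 and 56.6 CPM in other late cells. The replicative helicase subunit MCM5 had 107, 96.0 and 130 CPM against 168, 127 and 170 CPM, and CCND1, the G1 cyclin D1, 29.1, 28.8 and 32.7 CPM against 54.8, 43.3 and 45.0 CPM. CCND1 was not called without E13.5 or without the shared barcodes.

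Along the ranking, S phase genes peaked in the middle. With the late cells of each library cut into 10 equal groups by score, the S phase list summed to 2840, 2501 and 2848 CPM in the lowest group. It was highest in group 5, 7 and 6, at 5707, 5625 and 5710 CPM, and stood at 3547, 3727 and 3725 CPM in the top group. The mitotic entry list instead was highest in group 10 of every library. The other late cells are therefore not all resting cells: the groups with the most S phase transcripts lie among them or at the border of the mitotic cells. Among mitotic late cells alone, the score and the S phase list had Pearson correlations of -0.23, -0.16 and -0.15 across 98, 87 and 161 cells, which share a library and a depth denominator. UBE2C and PLK1 correlated at 0.47, 0.39 and 0.40 and CDC20 with UBE2C at 0.33, 0.42 and 0.44, whereas MKI67 and TOP2A reached 0.11, 0.15 and 0.03. The cells were chosen by the sum of these same genes, and that choice itself shapes the correlations. Differences between the pairs are therefore no result, and all these values across cells are descriptions of sparse counts.

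**Figure D4:**
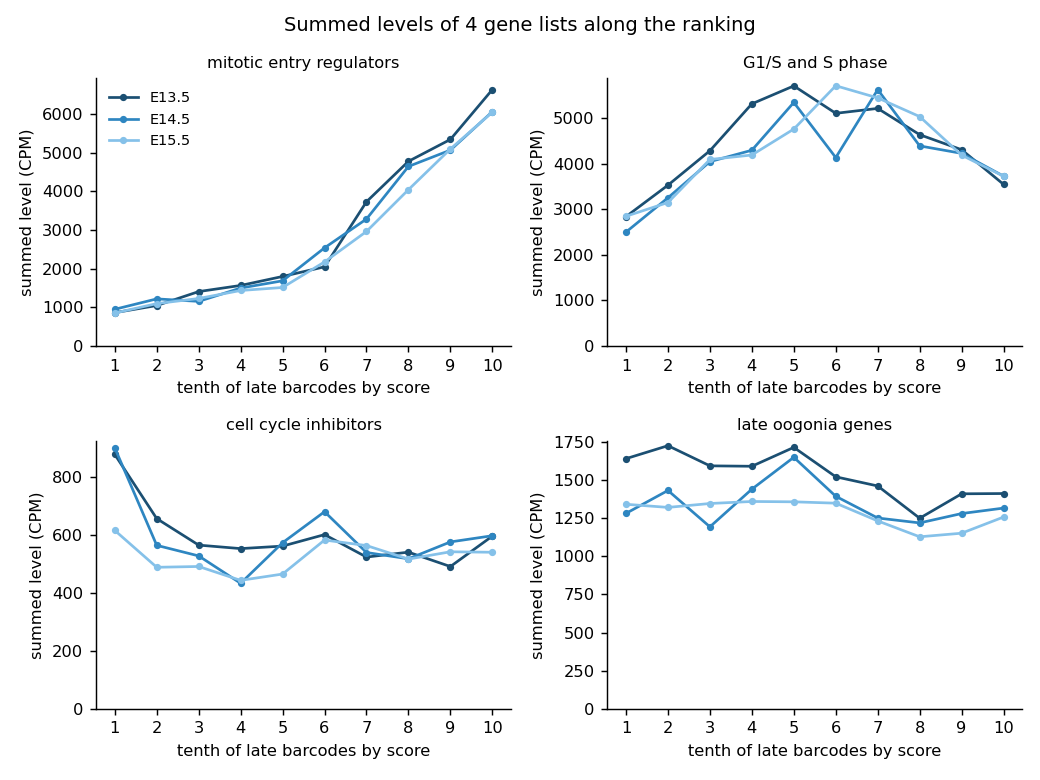
Summed levels (CPM) of 4 gene lists in 10 equal groups of late cells ordered by score (1 lowest, 10 highest), 1 line per library. Mitotic entry genes are highest in group 10, S phase genes in groups 5 to 7 and cell cycle inhibitors in group 1.

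Cell cycle inhibitors were split. Of 15 tested, 7 were called higher and 2 lower, beside 16.5% higher and 14.3% lower over all genes. The median log2 fold change was 0.24. CDKN1C, the inhibitor p57, stood lowest of all named genes, with 2.87, 4.81 and 4.32 CPM in mitotic late cells and 46.1, 78.5 and 30.8 CPM in other late cells (log2 fold change -3.51, SE 0.41). The classes did not overlap, but single barcodes held 29.6%, 46.4% and 33.0% of the CDKN1C UMIs of other late cells. Without the highest barcode of each class the levels were 1.93, 3.05 and 3.87 CPM in mitotic late cells and 32.6, 42.2 and 20.7 CPM in other late cells. CDKN2D, the inhibitor p19, ran the other way, at 48.4, 49.3 and 39.3 CPM in mitotic late cells against 18.04, 19.2 and 19.1 CPM in other late cells, and CDKN1B, the inhibitor p27, had 57.6, 56.3 and 54.1 CPM against 42.3, 38.5 and 34.1 CPM.

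Chromatin and tubulin genes of cycling cells were called higher in 13 of 13. TUBB4B, a beta-tubulin, had 1250, 1314 and 1402 CPM in mitotic late cells and 272, 251 and 278 CPM in other late cells, the widest gap of that list. Mitotic cohesin genes were called higher in 10 of 11, among them RAD21, the cleavable ring subunit, at 483, 457 and 504 CPM against 292, 270 and 292 CPM. Of 8 DNA methylation genes, DNMT1 and TRIM28 were called higher and DNMT3A lower, where 16.5% of all genes were called higher and 14.3% lower. These few calls are no result about the list as a group. DNMT1, the maintenance methyltransferase, had 251, 300 and 235 CPM in mitotic late cells and 212, 193 and 175 CPM in other late cells, and DNMT3A, which methylates unmarked DNA, 58.3, 64.1 and 60.3 CPM against 93.5, 78.8 and 72.4 CPM. The DNMT3A call was lost without E13.5 and without the shared barcodes.

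Of the germ cell genes, the defining DDX4 and DAZL were near level. DDX4 had 132, 140 and 122 CPM in mitotic late cells and 145.4, 127 and 128 CPM in other late cells, and DAZL 409, 363 and 387 CPM against 431, 365 and 374 CPM. Both ranges overlapped, and neither gene was called. Of 12 late oogonia genes, 0 were called higher and 5 lower (MAEL, CRABP2, TEX15, TDRD1 and PIWIL2), with a median log2 fold change of -0.03. Over all genes 16.5% were called higher and 14.3% lower. MAEL, a factor of piRNA biology, had 35.2, 39.5 and 48.8 CPM in mitotic late cells and 70.0, 66.2 and 78.8 CPM in other late cells, with no overlap.

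Early oogonia genes were also lower, 7 of 12 called and 0 called higher, with a median log2 fold change of -0.42. Over all genes 14.3% were called lower and 16.5% higher. NANOS3, the RNA-binding protein that keeps early germ cells alive, had 25.7, 26.0 and 35.3 CPM in mitotic late cells and 62.0, 81.0 and 102 CPM in other late cells (log2 fold change -1.37, SE 0.12). UTF1, a pluripotency-linked chromatin factor, had 71.0, 52.1 and 62.0 CPM against 87.0, 110 and 84.3 CPM, and KIT, the receptor for stem cell factor, 103, 90.8 and 76.0 CPM against 109, 102 and 99.8 CPM, where the ranges overlapped and no call was made. The UTF1 call was lost without the barcodes shared between libraries.

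Meiotic genes were called in both directions, with 5 of 20 called higher, 3 lower and a median log2 fold change of 0.00. With 16.5% of all genes called higher and 14.3% lower, these counts are near the share over all genes and are no result about meiotic genes as a group. REC8, the meiotic cohesin subunit, had 37.1, 42.9 and 60.6 CPM in mitotic late cells and 108, 77.1 and 134 CPM in other late cells. The classes did not overlap, and the log2 fold change was -1.09 (SE 0.12). At 10000 UMIs per cell, 23.5%, 29.9% and 32.9% of mitotic late cells held a REC8 UMI, against 56.4%, 48.9% and 56.2% of other late cells. Without thinning, the shares were 72.4%, 66.7% and 75.8% against 83.6%, 70.7% and 81.4%. AMHR2, a supporting cell gene that serves as a background here, was found in 5.10%, 5.75% and 2.48% of mitotic late and 8.21%, 6.32% and 6.83% of other late cells at the same depth. STAG3, a cohesin subunit of meiosis, ran opposite to REC8, at 210, 194 and 232 CPM in mitotic late cells against 135.3, 107 and 154.7 CPM. MEIOB, a single-strand DNA-binding protein of recombination, had 90.7, 89.1 and 65.9 CPM against 50.002, 51.2 and 40.9 CPM. TEX12, of the synaptonemal complex, and RAD21L1, a further meiotic cohesin subunit, were the other genes called lower, at 9.62 to 11.6 CPM against 18.8 to 26.2 CPM and at 5.99 to 8.47 CPM against 10.4 to 12.2 CPM.

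**Figure D5:**
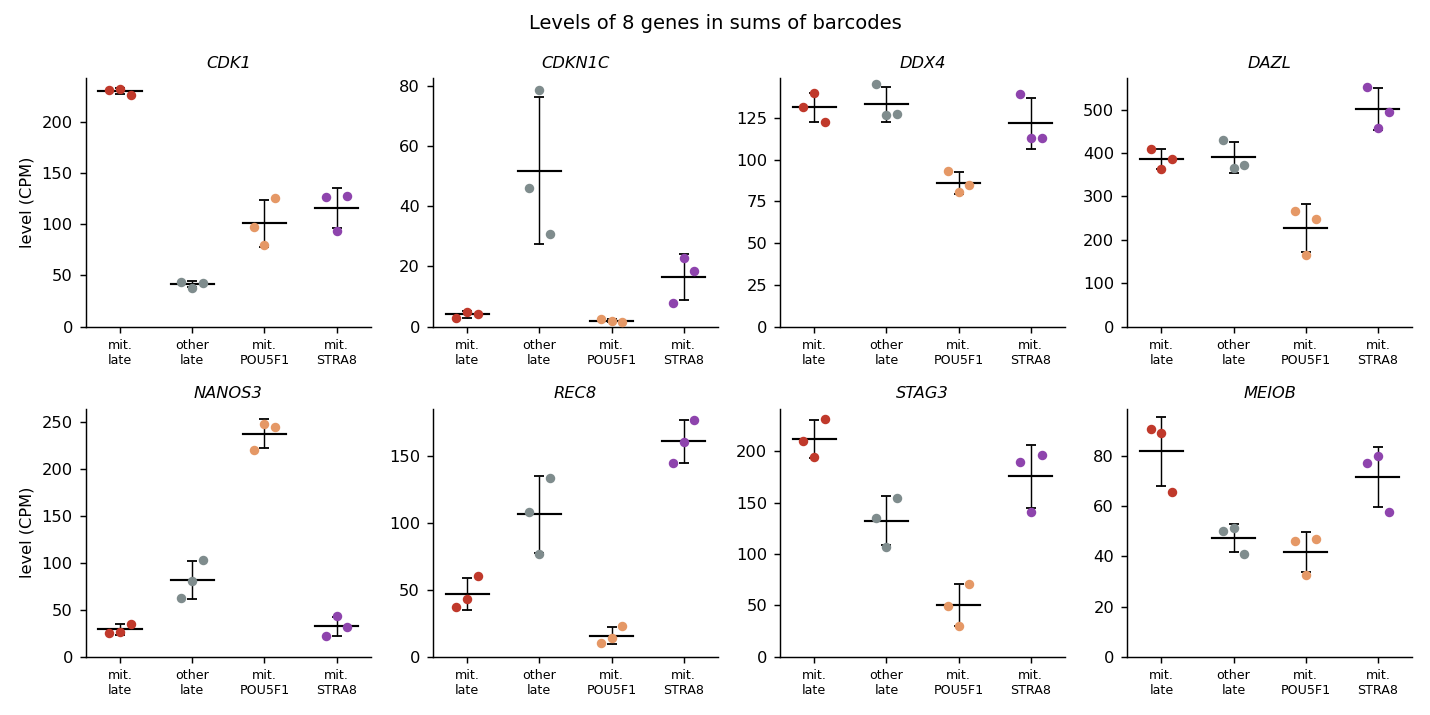
Levels (CPM) of 8 genes in mitotic late cells, other late cells and the top-ranked 1 in 3 of POU5F1-high and STRA8-positive cells; points are the 3 libraries (E13.5, E14.5, E15.5 from left to right), bars the mean and whiskers the SD. REC8 and NANOS3 are lower, and STAG3 and MEIOB higher, in mitotic late than in other late cells of every library, while DDX4 and DAZL overlap.

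By the naming rule, the genes with the highest fold changes in mitotic late over other late cells, list members included, were PIF1, KIF20A, CCNB1, PRC1, GTSE1, CCNF, NUSAP1, ASPM, FAM72A and DEPDC1. PIF1, a DNA helicase, had 41.4, 30.0 and 35.7 CPM in mitotic late cells against 5.33, 3.73 and 4.40 CPM in other late cells, the largest log2 fold change at 3.09 (SE 0.16). PRC1, which bundles the central spindle, had 307, 303 and 250 CPM against 50.3, 43.0 and 39.8 CPM, and CCNF, an F-box cyclin, 69.5, 63.1 and 67.4 CPM against 12.52, 9.11 and 10.6 CPM.

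On the low side, CDKN1C was followed by SLC16A8, AMOT, PLK2, SLC25A29, PEG10, NANOS3, TKTL1, TXNIP and RND3. SLC16A8, a lactate transporter, had 4.37, 6.01 and 7.17 CPM in mitotic late cells and 22.4, 26.5 and 23.8 CPM in other late cells. AMOT, a scaffold of the Hippo pathway, had 10.9, 9.42 and 18.6 CPM against 45.6, 39.5 and 41.8 CPM. TXNIP, an inhibitor of thioredoxin, had 15.8, 20.2 and 29.0 CPM against 54.9, 47.7 and 72.6 CPM, and the low-mitochondrial barcodes held 313, 130 and 167 CPM of it. Dissociation-linked genes were called lower in 4 of 11 (FOS, FOSB, JUNB and ATF3) and higher in 3, beside 14.3% lower and 16.5% higher over all genes. FOS, an immediate early transcription factor, had 57.6, 69.7 and 108 CPM in mitotic late cells and 184, 119 and 129 CPM in other late cells, beside 4664, 3351 and 4202 CPM in low-mitochondrial barcodes. The FOS call was lost without E13.5, and single barcodes held much of PEG10 in other late cells of E14.5 (38.3% of its UMIs). The supporting and stromal marker sums given above were lower in mitotic late cells too, and their part in the FOS and TXNIP differences was not tested.

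Against earlier cells ranked the same way, mitotic late cells differed widely. The top-ranked 1 in 3 of POU5F1-high cells, called mitotic POU5F1-high cells here, numbered 24, 46 and 82, and its median score was 1052, 1212 and 1792 CPM, below that of mitotic late cells, so the pair is not matched in score. POU5F1 itself chose the classes, so these calls too are a description: 8526 of 14859 genes (57.4%) were called, 4595 (30.9%) higher and 3931 (26.5%) lower in mitotic late cells. Without the shared barcodes the counts were 4097 higher and 3657 lower. The median log2 fold change was 0.09 after scaling and 0.39 in plain CPM, a shift of 0.29 that applies to every fold change of this comparison.

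All 12 early oogonia genes were called lower in mitotic late than in mitotic POU5F1-high cells, with a median log2 fold change of -3.52. TFAP2C, a specification factor of germ cells, had 6.83, 7.21 and 6.67 CPM in mitotic late cells and 106, 93.6 and 110 CPM in mitotic POU5F1-high cells. Late oogonia genes were called higher in 11 of 12, the exception being PIWIL2, where 30.9% of all genes were called higher and 26.5% lower. MSX1, a homeobox gene that responds to BMP, had 194, 150 and 136 CPM in mitotic late cells against 1.92, 2.72 and 26.1 CPM in mitotic POU5F1-high cells. Meiotic genes were called higher in 15 of 20 and 0 were lower. SMC1B, a meiotic cohesin subunit, had 347, 369 and 293 CPM in mitotic late cells against 35.2, 50.1 and 57.2 CPM, while NANOS3 had 25.7, 26.0 and 35.3 CPM against 220, 247 and 245 CPM.

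Genes named by size in that comparison were led by the HOXB cluster, which marks position along the body. HOXB5 had 53.4, 80.5 and 74.6 CPM in mitotic late cells and 0.640, 0.388 and 7.32 CPM in mitotic POU5F1-high cells, and HOXB6, HOXB8 and HOXB9 were likewise higher. FST, the activin-binding follistatin, had 33.5, 29.0 and 49.2 CPM against 0, 0.777 and 4.50 CPM, and FZD7, a Wnt receptor, 51.4, 52.5 and 62.9 CPM against 0.640, 1.94 and 5.82 CPM. LIMCH1 and FHL1 completed the high side. On the low side, ACTG2, a smooth muscle type actin, had 0.819, 2.20 and 1.86 CPM in mitotic late cells against 143, 147 and 160 CPM. GPHA2, a glycoprotein hormone subunit, had 7.38, 7.61 and 9.82 CPM against 207, 311 and 298 CPM, and ABCG1, MAL, MYRIP, KLK4, CHL1 and PCP4L1 were lower with log2 fold changes of -6.66 to -5.08.

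Mitotic entry genes were called higher in 9 of 19 and lower in 5, and S phase genes higher in 3 of 47 and lower in 31, where 30.9% of all genes were called higher and 26.5% lower. The share of mitotic entry genes called lower was near that of all genes. PCNA, the sliding clamp of replication, had 178, 192 and 184 CPM in mitotic late cells and 423, 365 and 327 CPM in mitotic POU5F1-high cells.

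Whether the mitotic split itself differed between late and POU5F1-high cells was examined as the difference of 2 differences. Both splits were made by the ranking score itself, so these calls too are a description. The lowest score among mitotic POU5F1-high cells was 458, 482 and 595 CPM, beside 2154, 1706 and 1729 CPM among mitotic late cells. The mitotic minus other difference in late cells was set against the same difference in POU5F1-high cells, and 902 of 14859 genes (6.07%) passed, 557 (3.75%) with the larger (more positive) difference in late cells and 345 (2.32%) with the smaller (more negative). With RLE size factors in place of TMM, the share with the larger difference was 45.8% of 727 calls, beside 61.8% of 902. Of 47 S phase genes, 30 passed with the smaller difference and 0 with the larger (17 to 33 and 0 over the alternatives run), while of 19 mitotic entry genes 1 passed with the larger and 2 with the smaller. Without E13.5 the counts were 53 larger and 112 smaller, without E14.5 264 and 242, without E15.5 86 and 81, with no replicate block 27 and 71, and without the shared barcodes 337 and 314. RRM2 was 88.2, 86.9 and 84.6 CPM in mitotic late and 56.6, 54.5 and 56.6 CPM in other late cells, and 149, 132 and 154.6 CPM in mitotic and 6.51, 9.04 and 14.9 CPM in other POU5F1-high cells. The difference of its log2 differences was -2.87 (SE 0.23, edgeR adjusted p = 5.71e-09). UHRF1, which guides DNMT1 to replicated DNA, was 40.4, 42.1 and 34.6 CPM in mitotic late and 41.6, 35.3 and 33.5 CPM in other late cells, against 28.8, 22.9 and 20.3 CPM in mitotic and 2.06, 2.32 and 3.24 CPM in other POU5F1-high cells (difference -2.79, SE 0.29, edgeR adjusted p = 7.99e-07). For both genes the low values were those of other POU5F1-high cells, and the late classes lay closer together. The lower scores of mitotic POU5F1-high cells moved with this result, and their part in it was not tested.

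Fewer genes were called against STRA8-positive cells. Their top-ranked 1 in 3, called mitotic STRA8-positive cells here, numbered 47, 31 and 92 cells with median scores of 1791, 1248 and 1591 CPM, again below those of mitotic late cells, and STRA8 itself chose the classes. Of 14859 genes, 1219 (8.2%) were called, 801 (5.39%) higher and 418 (2.81%) lower in mitotic late cells. With RLE size factors 54.2% of the calls were higher, beside 65.7%. Without E13.5 the counts were 357 higher and 134 lower, without E14.5 424 and 327, without E15.5 227 and 93, with no replicate block 209 and 105, and without the shared barcodes 478 and 257. Mitotic entry genes were called higher in 17 of 19, spindle genes in 16 of 16 and kinetochore genes in 17 of 20, with 0 lower. CDK1 had 231, 232 and 226 CPM in mitotic late cells and 126, 93.1 and 127 CPM in mitotic STRA8-positive cells.

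The lowest named gene in that comparison was REC8, at 37.1, 42.9 and 60.6 CPM in mitotic late cells and 145.2, 161 and 177 CPM in mitotic STRA8-positive cells (log2 fold change -1.70, SE 0.13). In mitotic POU5F1-high cells it had 10.2, 14.4 and 22.7 CPM, so mitotic late cells stood between the other classes without overlap. ADAMTS6, EPHA4, RND3, CYP26A1, GLI3, DUSP6 and CTGF were the other low genes. CYP26A1, which degrades retinoic acid, had 10.4, 18.4 and 7.66 CPM in mitotic late cells and 21.3, 34.8 and 34.8 CPM in mitotic STRA8-positive cells, and was not called without E15.5. DAZL had 409, 363 and 387 CPM against 553, 457 and 495 CPM, and CCND1 29.1, 28.8 and 32.7 CPM against 58.4, 70.4 and 64.4 CPM, both called lower without overlap. On the high side stood SERPINB6, PIF1, H1-5, CCNF, PSRC1, TBX1, H1-1 and TUBB4B. The linker histone H1-1 had 130, 183 and 119 CPM in mitotic late cells against 76.7, 54.2 and 46.9 CPM. SERPINB6 had 38.4, 31.7 and 45.9 CPM against 12.7, 8.90 and 15.9 CPM, beside 222, 182 and 234 CPM in low-mitochondrial barcodes.

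Taken as a difference of differences, the mitotic split in late cells departed from that in STRA8-positive cells in 26 genes (0.175% of 14859). Both splits were again made by the ranking score, so these calls are a description. The larger difference in late cells was found for 17 (0.114%) and the smaller for 9 (0.0606%). HJURP, the chaperone of CENPA, was 171, 144 and 139 CPM in mitotic late and 42.1, 28.8 and 36.7 CPM in other late cells, and 95.1, 63.1 and 76.1 CPM in mitotic and 41.0, 36.6 and 34.9 CPM in other STRA8-positive cells (difference 1.01, SE 0.21, edgeR adjusted p = 0.0287). AMOT was 10.9, 9.42 and 18.6 CPM in mitotic late and 45.6, 39.5 and 41.8 CPM in other late cells, and 24.3, 20.2 and 29.7 CPM in mitotic and 27.6, 23.9 and 40.7 CPM in other STRA8-positive cells (difference -1.32, SE 0.24, edgeR adjusted p = 0.0135). Without E15.5 the counts were 0 larger and 2 smaller, without E13.5 1 and 1, without E14.5 8 and 11, with no replicate block 0 and 1, and without the shared barcodes 28 and 11.

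Few genes of mitotic late cells differed between the stages of the mouse cells. With 1 library per stage no test was possible, and a gene counted as different at 2-fold or more in CPM plus 1 with at least 20 CPM in 1 library. E14.5 against E13.5 gave 17 genes higher (0.234%) and 15 lower (0.207%) of 7250, 0.441% in all, and E15.5 against E13.5 gave 6 higher (0.0822%) and 22 lower (0.302%) of 7296, 0.384% in all. Without the shared barcodes the counts were 14 higher and 21 lower in E14.5, and 7 higher and 25 lower in E15.5. No mitotic list held such a gene, and of the other lists only dissociation stress held 1, in E14.5. With 0.441% and 0.384% of all genes passing, this is no result about mitotic genes. Spindle genes had median log2 ratios of -0.12 in E14.5 and -0.33 in E15.5 over E13.5, beside -0.04 over all genes. In other late cells the spindle list summed to 1114, 916 and 928 CPM, also highest in E13.5. The lowest score among mitotic late cells was 2154, 1706 and 1729 CPM, and its part in these ratios was not tested.

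TKTL1 stood furthest above its E13.5 level in the E14.5 library. TKTL1 is a transketolase-like gene and was at 1.78 CPM in E13.5, 33.5 CPM in E14.5 and 13.8 CPM in E15.5 (exact 95% Poisson intervals 0.945 to 3.04, 28.6 to 38.9 and 11.7 to 16.3 CPM, counting error only). Other late cells held 7.57, 64.0 and 44.3 CPM in the same order. INHA and JUN were also higher in E14.5, but 1 barcode held 65.7% and 59.3% of their UMIs among mitotic late cells of E13.5, and low-mitochondrial barcodes carried 1289 to 1736 CPM of INHA and 2669 to 2975 CPM of JUN. Supporting cell markers, INHA among them, summed to 19.8, 51.3 and 40.3 CPM in mitotic late cells. INHA itself gave 4.78, 21.6 and 13.3 CPM of these sums, so they are not separate from its value. The part of supporting cell transcripts in the INHA value was not tested. Without the shared barcodes the log2 ratio was 0.95 for INHA, against 1.97 with them, and 0.16 for JUN, against 1.65. ZNF442, a zinc finger gene, was at 41.0, 6.41 and 20.1 CPM, and 83.3% of its E13.5 UMIs came from 1 barcode, without which it stood at 6.89 CPM. PPIA, H3F3A, CTSD and LOXL1 were lower in E14.5 than in E13.5, with log2 ratios of -1.60 to -1.31, and in other late cells the ratios were -1.57, -1.54, -1.17 and -1.61. PPIA and H3F3A have near-identical copies in primate genomes, so their counts are uncertain.

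The genes furthest below their E13.5 level in E15.5 included some histone genes. H3C2 was at 57.6, 66.7 and 13.0 CPM, H2AC12 at 198, 173 and 73.0 CPM and H1-5 at 199.95, 160 and 82.5 CPM in mitotic late cells, so E15.5 was the low library, as it was for H2AC1 and CT45A10, a cancer-testis antigen gene. Their log2 ratios over E13.5 ran from -2.07 to -1.27 in mitotic late cells and from -1.86 to -0.61 in other late cells. Without the shared barcodes the log2 ratios were -1.61 for H3C2 and -0.71 for H1-5. Other histone genes differed less or were higher in E15.5, with H1-1 at 130.3, 183 and 119 CPM and H2AX at 39.5, 31.7 and 48.1 CPM. Histone genes of these clusters are near copies of each other, and counts may be split among them. Among the genes higher in E15.5 were CITED2, SP8, NR2F1 and DUSP6, with log2 ratios of 1.05 to 1.48. DUSP6, a phosphatase that ends ERK signalling, was at 15.8, 17.0 and 34.0 CPM in mitotic late cells and at 54.0, 57.7 and 62.6 CPM in other late cells of the same libraries. NR2F1 had a log2 ratio of 0.47 without the shared barcodes. Low-mitochondrial barcodes held 600.1, 960 and 837 CPM of CITED2 and 17.2, 11.2 and 12.7 CPM of NR2F1. Stromal markers, NR2F1 among them, summed to 57.0, 89.3 and 95.1 CPM in mitotic late cells across the stages. NR2F1 itself gave 12.4, 18.6 and 27.0 CPM of these sums. The part of stromal transcripts in the CITED2 value was not tested.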

How the data were processed

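Single cells of 3 libraries were sequenced with the 10x 3' kit, per the labels' protocols. The authors deposited raw UMI counts per gene and barcode (26017 monkey features), which per the file headers come from Cell Ranger 6.0.1. The genome build is not given in the sources used here. Depth was 44762884, 30607553 and 70850640 UMIs per library (E13.5, E14.5, E15.5), and in the mitotic late sums 7321729, 4991969 and 10187624, where 3 counts equal 0.410, 0.601 and 0.294 CPM. No doublet caller was run. UMIs were summed per library and class (21 sums) and fitted with edgeR 4.0.16 quasi-likelihood tests in R 4.3.3, with TMM scaling, library as a block and all classes in 1 fit; 24 genes used by the rule were left out of the tests. The labels do not say whether the libraries came from separate cultures, so the p-values concern these 3 libraries only. They measure how class differences varied between the libraries, after the block took out what all classes of a library share. This spread was pooled over 7 classes, with 12 residual degrees of freedom. Since the classes compared come from the same libraries, the library pairs them.

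Named genes were the 10 (mitotic late against other late) or 8 (other contrasts) highest and lowest called genes with at least 20 CPM and the same direction in 3 of 3 libraries, the extremes and most abundant members of each list, and some further genes chosen after their values were seen; a few genes that this rule names are not reported here. The members and the 16 gene lists were chosen with earlier results of these data known. RefSeq gene numbers paired 669 of the 9282 LOC features with a symbol. The alternatives were other size factors, DESeq2 1.42.0, no low-count filter, a fit of only the classes compared, no block, each library left out, other ranking cuts, ranking on 1 of 2 parts of the UMIs and testing on the other, a DDX4 plus DAZL gate, and leaving out the deepest barcodes. Leaving out barcodes shared between libraries was added after seeing the data.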

Additional observations from a re-analysis of the deposited data

Results flagged for a closer look

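The calls on a difference between differences describe splits made by the ranking score itself. They set these results apart: the mitotic minus other difference was not the same in late cells as in another class. In late cells against POU5F1-high cells this held for 902 genes, of which the named ones with the larger difference in late cells were DEPDC1B (1.60 on the log2 scale), CDC25B (1.11), KHDC3L (1.05), PIF1 (1.03), SLC9A3R2 (1.01), VAMP8 (0.97) and PBK (0.96). CDC25B, a phosphatase that activates CDK1 at mitosis, and PBK, a mitotic kinase, belong to the dividing cell program. KHDC3L is on the list of early oogonia genes. KHDC3L and VAMP8 were near level between the late classes and lower in mitotic than in other POU5F1-high cells. Mean KHDC3L was 4.72 CPM in mitotic and 5.199 CPM in other late cells, against 28.9 and 60.5 CPM in POU5F1-high cells. Mean VAMP8 was 8.53 and 9.75 CPM, against 39.7 and 80.2 CPM. SLC9A3R2 was also lower in mitotic than in other POU5F1-high cells, at means of 4.06 and 6.76 CPM. The smaller difference in late cells was found for PHLDA2 (-2.89), RRM2 (-2.87), UHRF1 (-2.79), REC8 (-2.40), PRAG1 (-2.39), PRSS50 (-2.37), PRPH (-2.23) and SYCP2 (-2.19). Those of PRAG1, PRSS50 and PRPH rest on low levels in POU5F1-high cells. PRAG1 had 0, 2.33 and 4.88 CPM in mitotic and 0.343, 1.62 and 0.481 CPM in other POU5F1-high cells. PRSS50 had 2.56, 1.55 and 8.07 CPM against 1.03, 0.695 and 1.44 CPM, and PRPH 0.640, 0.777 and 3.19 CPM against 0, 0.464 and 0.961 CPM. REC8 was lower in mitotic than in other late cells, but 10.2, 14.4 and 22.7 CPM in mitotic and 4.45, 7.65 and 7.21 CPM in other POU5F1-high cells, so its 2 differences ran in opposite directions in each library.

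In late cells against STRA8-positive cells the difference held for 26 genes. The larger difference in late cells was found for TROAP (1.496), BORA (1.07), HJURP (1.01), PBK (0.90), OIP5 (0.87), CKAP2L (0.87), CDCA2 (0.82) and TTK (0.78), a group that includes TTK, the checkpoint kinase, and OIP5 and HJURP, which load CENPA at centromeres. The smaller was found for PLK2 (-1.58), CTGF (-1.52), AMOT (-1.32), MYCN (-0.96), FOXP1 (-0.74), TAOK3 (-0.71) and CNTNAP2 (-0.64). MYCN, a growth-promoting transcription factor, stood at 33.1, 42.5 and 46.4 CPM in mitotic late and 77.5, 67.0 and 71.6 CPM in other late cells, and at 81.2, 76.9 and 119 CPM in mitotic and 81.1, 70.4 and 101 CPM in other STRA8-positive cells. Median scores also differed between these classes, and their part in the results was not tested.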

How the results depend on the processing

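Of 187 named results, 123 were counted as unchanged in every alternative run. For tested genes this meant the same side of the threshold, and a change of direction counted only where the gene was called in either run. For ratios between stages it meant the same direction and a value within counting error. No result reversed in this sense. STAG3, MEIOB and CDKN1C between mitotic late and other late cells, and UHRF1 and RRM2 in the difference of differences against POU5F1-high cells, were among the 123. Single-library depth, 1 library per stage and the small cell numbers of the POU5F1-high and STRA8-positive classes limit precision. With no replicate block, which drops the pairing by library, the counts were 1183 higher and 948 lower against other late cells (2455 and 2132 with it), 209 and 105 against STRA8-positive cells (801 and 418), 27 and 71 for the difference against POU5F1-high (557 and 345) and 0 and 1 for that against STRA8-positive cells (17 and 9). Leaving out a library gave, in the same order, 1344 to 2065 and 1020 to 1553, 227 to 424 and 93 to 327, 53 to 264 and 81 to 242, and 0 to 8 and 1 to 11. Without shared barcodes, 1315 were lower against other late cells, 478 higher and 257 lower against STRA8-positive cells, 337 larger against POU5F1-high and 28 larger against STRA8-positive cells. Taking the top 25% gave 436 higher and 239 lower against STRA8-positive cells, 220 smaller against POU5F1-high, and 0 larger and 4 smaller against STRA8-positive cells. Ranking on 1 of 2 parts of the UMIs gave 493 higher against STRA8-positive cells, 232 larger and 200 smaller against POU5F1-high, and 19 smaller against STRA8-positive cells. RLE size factors gave 333 larger and no low-count filter 540 smaller against POU5F1-high, and fitting only the classes compared 747 lower against STRA8-positive cells. The difference against STRA8-positive cells gave 38 larger and 19 smaller with DESeq2, 89 and 105 with no filter, 180 and 132 with only the classes compared, 67 and 15 with the top 50%, 1 and 0 with the mean rank, 31 and 18 with the DDX4 plus DAZL gate and 41 and 21 without the deepest barcodes. Between stages, a minimum of 10 CPM gave 41 higher and 30 lower in E14.5 and 23 higher in E15.5, and 50 CPM 7 and 5 in E14.5 and 0 and 10 in E15.5. The log2 ratio of UMIs was 0.35 without shared barcodes. The causes of these changes were not tested.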

Other observations

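The sums of germ cell lists along the ranking are a description of groups ordered by the score itself. In the highest of 10 groups of late cells, late oogonia genes summed to 1412, 1316 and 1258 CPM (E13.5, E14.5, E15.5), beside 1640, 1282 and 1341 CPM in the lowest group. Early oogonia genes stood at 333, 225 and 253 CPM in the highest group and 411, 505 and 445 CPM in the lowest, and their peak lay in group 4, 3 and 2. Dissociation stress genes summed to 2083, 2203 and 2247 CPM in the highest group and 2949, 2074 and 2681 CPM in the lowest, lower at the top in E13.5 and E15.5 and higher in E14.5.

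Detection followed the levels. At 10000 UMIs per cell, 82.7%, 82.8% and 76.4% of mitotic late cells held a CDK1 UMI, against 29.7%, 25.9% and 29.2% of other late cells. Without thinning the CDK1 shares were 99.0%, 92.0% and 94.4% against 63.6%, 56.9% and 61.5%. DAZL was found in 95.9%, 96.6% and 95.03% of mitotic late cells and 95.4%, 90.2% and 95.7% of other late cells. COL1A1, a stromal gene that serves as a background, was found in 9.18%, 10.3% and 11.8% of mitotic late cells and 17.4%, 16.1% and 16.8% of other late cells, and without thinning in 43.9%, 35.6% and 43.5% against 47.2%, 36.8% and 37.6%. The order of the COL1A1 shares in E15.5 thus turned with depth.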
